A study of Homo sapiens with 30 samples.

Results

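A set of 7 genes of lipid synthesis was followed by nascent transcription in A549 cells, an established human lung adenocarcinoma line: HMGCS1, SQLE, INSIG1, SREBF1, SREBF2, FASN and SCD. They were chosen by name and make up 7 of the 58780 genes in the deposited count table, and all 7 were among the 22919 genes tested. Precision run-on sequencing (PRO-seq) was used, which reads RNA that engaged polymerases extend in permeabilised cells, so a value stands for transcription under way and not for the RNA pool. In such bulk samples, fewer transcribing cells and less transcription per cell cannot be told apart. The design comprised 30 libraries in 15 groups of 2, all with 0.01% DMSO: untreated cells; dexamethasone (Dex, a synthetic glucocorticoid, 100 nM) for 15 min or 3 h; Dex for 3 h given together with GSK591 or with MS023; GSK591 or MS023 alone for 2, 4 or 7 days; and 7 days of either inhibitor with Dex added for the last 15 min or 3 h. GSK591 (1 µM) inhibits PRMT5, the main Type II arginine methyltransferase, and MS023 (1 µM) inhibits Type I arginine methyltransferases. The untreated libraries are labelled 15 min and served as the comparison for every treatment length. Nothing in the labels says that the 2 libraries of a group came from separate cultures, so p-values measure only the spread between these libraries, which may be technical.

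Cholesterol and fatty acid synthesis are switched on together by the sterol regulatory element-binding proteins (SREBPs), transcription factors made from SREBF1 and SREBF2 and held in the endoplasmic reticulum until SCAP escorts them to the Golgi for cleavage. INSIG1 retains SCAP when sterols are plentiful and is itself an SREBP target, which closes a feedback loop. HMGCS1 makes HMG-CoA near the start of the mevalonate pathway, SQLE carries out the first oxygenation on the way to sterols, FASN builds palmitate from malonyl-CoA, and SCD puts the first double bond into saturated fatty acids. In the lung, this lipid supply also serves surfactant made by alveolar type II cells, the cell type that A549 is often used to model.

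RefSeq promoter windows (GRCh38.p14) were matched for 5 of the 7 genes. The 250 bases before the annotated start are printed for 4 of them. HMGCS1 had the clearest response to Dex, and INSIG1 had the largest fall at 15 min. The SREBP genes SREBF1 and SREBF2 are printed because only 1 of their windows holds a sterol regulatory element core. Capitals mark matches on either strand to that core (TCACNCCAC), to CCAAT and to the E-box CACGTG. The windows are chr5:43313413-43313662 (minus strand) for HMGCS1, chr7:155297628-155297877 (plus) for INSIG1, chr17:17836987-17837236 (minus) for SREBF1 and chr22:41832855-41833104 (plus) for SREBF2, each written 5′ to 3′ along its gene.
HMGCS1: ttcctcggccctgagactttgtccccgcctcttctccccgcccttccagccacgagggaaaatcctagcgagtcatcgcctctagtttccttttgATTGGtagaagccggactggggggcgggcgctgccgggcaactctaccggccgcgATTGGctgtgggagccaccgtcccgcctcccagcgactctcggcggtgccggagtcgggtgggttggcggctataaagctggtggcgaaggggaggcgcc
INSIG1: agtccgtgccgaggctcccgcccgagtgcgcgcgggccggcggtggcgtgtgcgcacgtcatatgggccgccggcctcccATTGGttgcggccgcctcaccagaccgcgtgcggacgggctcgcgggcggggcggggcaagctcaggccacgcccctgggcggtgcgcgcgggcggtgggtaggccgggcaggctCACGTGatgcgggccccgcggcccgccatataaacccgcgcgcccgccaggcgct
SREBF1: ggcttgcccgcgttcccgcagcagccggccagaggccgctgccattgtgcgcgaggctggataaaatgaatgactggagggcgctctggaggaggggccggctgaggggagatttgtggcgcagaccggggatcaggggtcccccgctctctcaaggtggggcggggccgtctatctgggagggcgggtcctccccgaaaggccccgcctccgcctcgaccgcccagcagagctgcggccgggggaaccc
SREBF2: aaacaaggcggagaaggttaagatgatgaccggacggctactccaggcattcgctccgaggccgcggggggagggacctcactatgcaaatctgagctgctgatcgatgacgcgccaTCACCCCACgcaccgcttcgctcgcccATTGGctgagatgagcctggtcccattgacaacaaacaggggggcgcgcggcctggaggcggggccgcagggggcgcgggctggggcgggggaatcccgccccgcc

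SREBF2 holds the core as TCACCCCAC starting at -133 from the start, and an inverted CCAAT at -106. HMGCS1 holds inverted CCAAT letters at -155 and -100, and INSIG1 holds one at -170 and an E-box at -55. SREBF1 holds none of the 3 motifs in this window, the only one matched for it, and other starts of the gene were not read. A second HMGCS1 window, not printed, holds none of the 3 motifs. The SCD window, not printed, has CCAAT at -229 and -186. Over 35116 RefSeq windows of 300 bases, 1.13% held the core, 34.6% CCAAT and 7.26% the E-box, so CCAAT is common and the core is rare. The motifs do not overlap one another. A match describes these letters only and is no evidence of binding.

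Total counts per library ran from 8441211 to 13069598, of which mitochondrial genes took 58.7% to 78.7%. That share was 76.0% and 73.4% in the untreated libraries and 58.7% and 59.6% after 7 days of MS023, and the TMM scaling factors ran from 0.602 to 1.53. Levels are given as CPM, counts scaled to library size with TMM factors. The glucocorticoid targets FKBP5, PER1 and TSC22D3 had mean levels of 5.40, 11.5 and 15.2 CPM in untreated cells and 40.3, 42.5 and 113 CPM after Dex for 3 h. Each of 9 epithelial and A549 genes was counted in every library, but their levels differed widely, from 157 to 456 CPM for KRT8 and 101 to 209 CPM for AKR1B10 down to 0.957 to 6.19 CPM for EPCAM and 1.00 to 6.65 CPM for CDH1. CDKN2A, deleted in A549, had 0 to 3 counts per library. Of 7 genes of other cell types, the leukocyte genes PTPRC and CD3E had 0 to 5 counts, the hepatocyte gene ALB 0 to 9, the endothelial genes VWF and PECAM1 0 to 11 and 0 to 15, and the fibroblast collagen gene COL3A1 1 to 25. COL1A1, the other fibroblast collagen gene, was counted in every library, with 22 to 105 counts or 2.41 to 8.24 CPM, and its part in the results was not tested.

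Per kilobase of exon in the deposited count table, SCD had the highest median level over the 15 groups at 18.6 CPM per kilobase. SREBF1 followed at 11.1 and FASN at 11.0, then HMGCS1 at 6.18, INSIG1 at 4.35, SQLE at 2.89 and SREBF2 at 1.64. This order depends on the table read, since the mean normalised counts in the authors' deposited tables were 1.05 (SQLE) to 5.20 (SREBF2) times the mean counts. Per kilobase of exon, SREBF1 and SREBF2 had mean counts of 121 and 17.5, against 135 and 90.8 for the authors' deposited mean normalised counts, and HMGCS1, at 153, then stood above SREBF1. Across groups, SCD and HMGCS1 varied most, with the highest group mean 2.64 and 2.56 times the lowest. FASN varied 2.35-fold and INSIG1 2.20-fold. SREBF1 and SREBF2 varied least, 1.40-fold and 1.42-fold, and SQLE 1.72-fold. Counts per library ran from 59 to 299 for INSIG1, 64 to 222 for SQLE and 88 to 202 for SREBF2, against 613 to 1825 for FASN, so the less counted genes carry more counting error.

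**Figure D1:**
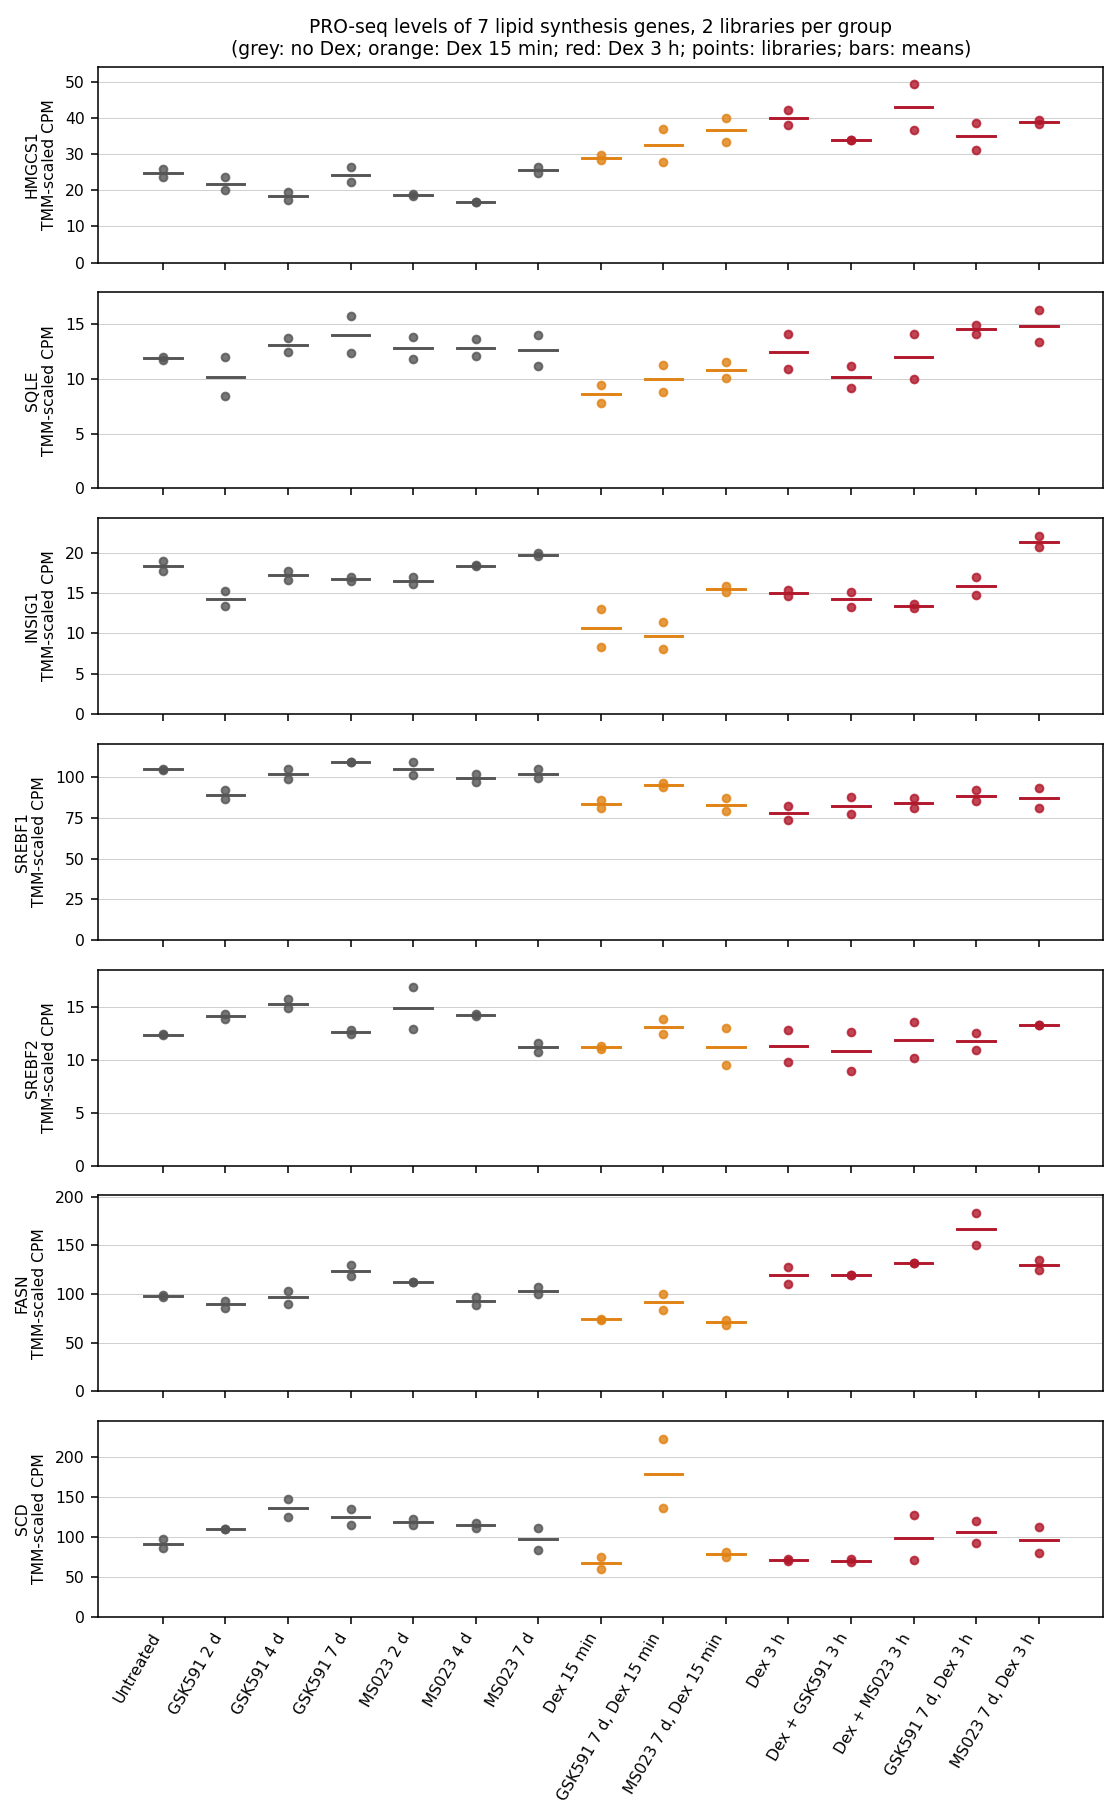
TMM-scaled CPM of each gene (vertical axes, starting at 0) in the 15 groups (horizontal axis), with 1 point per library and a bar at the mean of the 2 libraries. HMGCS1 is the gene whose Dex libraries, 27.8 to 49.4 CPM, all lie above the libraries without Dex, 16.8 to 26.5 CPM. FASN is lower at 15 min of Dex than at 3 h.

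The first question was what Dex alone does to these genes. After 15 min, INSIG1 and FASN fell, and none of the 7 genes was called higher. After 3 h, HMGCS1 rose and SREBF1 fell. At 15 min 2 of 7 genes were called, where 1.26% of all tested genes were, and at 3 h again 2 of 7, where 10.5% were. A gene is called when its adjusted p (edgeR's quasi-likelihood test, Benjamini-Hochberg over every gene tested) is under 0.05.

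INSIG1, the brake on SREBP export, had 17.7 and 18.9 CPM in untreated cells, 13.0 and 8.30 CPM after 15 min of Dex, and 14.6 and 15.4 CPM after 3 h. The untreated and 15 min libraries did not overlap. The fall at 15 min was -0.78 on the log2 scale (SE 0.159, adjusted p = 0.00207). The call rested on single libraries, since without untreated replicate 2 or without Dex 15 min replicate 2 it was lost, with estimates from -1.14 to -0.49 over the left-out fits. From 15 min to 3 h INSIG1 rose by 0.49 (SE 0.164, adjusted p = 0.0455), a call that was lost when Dex 15 min replicate 2 or either 3 h library was left out, without the filter on low counts, with DESeq2 and when only the groups compared were fitted. At 3 h its difference from untreated cells was -0.29 (SE 0.156, adjusted p = 0.258).

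FASN, the fatty acid synthase, had 97.2 and 98.9 CPM untreated, 73.5 and 74.8 CPM at 15 min, and 110 and 128 CPM at 3 h. The 3 groups did not overlap, with 15 min lowest and 3 h highest. Against untreated cells FASN fell by 0.40 at 15 min on the log2 scale (SE 0.107, adjusted p = 0.0393), a call lost on leaving out any of the 4 libraries, without the filter on low counts and with DESeq2, and the difference at 3 h was 0.28 (SE 0.106, adjusted p = 0.0849). Between the 2 times it rose by 0.68 (SE 0.107, adjusted p = 6.69e-06), and this call remained on leaving out each of the 4 libraries in turn. In the comparison of 3 h with 15 min, 3 of 7 genes were called (HMGCS1, INSIG1 and FASN, all higher at 3 h), where 10.8% of all tested genes were called. Over the whole design, the 10 libraries with 3 h of Dex had a lowest, median and highest FASN level of 110, 130 and 183 CPM, and the 6 with 15 min had 68.4, 74.2 and 100 CPM. These ranges were separate, as they were in this direction for 2.6% of all tested genes, but they overlapped when libraries were scaled by total counts alone.

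HMGCS1 had 23.8 and 26.0 CPM untreated, 28.4 and 29.7 CPM after 15 min, and 38.1 and 42.4 CPM after 3 h. The 3 groups did not overlap. At 3 h it had risen 1.61-fold, or 0.69 on the log2 scale (SE 0.138, adjusted p = 0.000283), and this call held on leaving out each of the 4 libraries and under each of the 7 other settings tried. At 15 min the difference of 0.22 (SE 0.139, adjusted p = 0.815) did not pass the test. From 15 min to 3 h it rose by 0.47 (SE 0.135, adjusted p = 0.0176), a call lost with DESeq2, without either 15 min library or without Dex 3 h replicate 2. HMGCS1 lies at chr5:43289395-43313512 on the minus strand. Exons of AC114947.2 on the other strand share 15.0% of its exonic bases and had 13 to 128 counts per library, against 167 to 538 for HMGCS1. Whether the counting used strand is not given in the sources used here, so reads of the shared bases cannot be told apart.

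SREBF1 (chr17:17810399-17837002, minus strand), which encodes SREBP-1a and SREBP-1c, had 105 CPM in both untreated libraries, 81.2 and 86.0 CPM after 15 min, and 82.6 and 73.5 CPM after 3 h. Both Dex groups lay below the untreated libraries. The fall at 3 h was -0.43 on the log2 scale (SE 0.102, adjusted p = 0.00248) and was no longer called without Dex 3 h replicate 2, at -0.35. The difference at 15 min was -0.33 (SE 0.101, adjusted p = 0.115). RAI1, on the other strand, shares 6.92% of SREBF1's exonic bases and had 271 to 623 counts per library. SREBF2 (chr22:41833079-41907308, plus strand), which encodes SREBP-2, had 12.3 and 12.5 CPM untreated and 9.78 and 12.8 CPM after 3 h, ranges that overlap. Its difference was -0.14 (SE 0.181, adjusted p = 0.703), with a 95% interval from -0.53 to 0.24. SREBF2-AS1, on the other strand, shares 3.71% of SREBF2's exonic bases. It had 101 to 276 counts per library, against 88 to 202 for SREBF2.

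SQLE, the squalene epoxidase, had 12.0 and 11.7 CPM untreated, 7.80 and 9.40 CPM at 15 min, and 10.8 and 14.0 CPM at 3 h. Its 15 min libraries lay below the untreated ones, with a difference of -0.46 (SE 0.195, adjusted p = 0.469), and at 3 h the groups overlapped. SCD, the stearoyl-CoA desaturase, had 98.2 and 86.1 CPM untreated, 60.6 and 75.4 CPM at 15 min, and 70.0 and 73.1 CPM at 3 h. Both Dex groups lay below the untreated libraries, but the differences of -0.44 (SE 0.265, adjusted p = 0.815) and -0.36 (SE 0.265, adjusted p = 0.469) did not pass the test. SCD had the largest standard error of the 7 genes in both comparisons.

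The second question was whether 7 days of PRMT inhibition, or an inhibitor added with Dex, altered these responses. After GSK591, 3 h of Dex raised HMGCS1 and FASN and lowered SREBF1, and after MS023 it raised HMGCS1 and FASN. Thus 3 of 7 and 2 of 7 genes were called against the same inhibitor without Dex, where 9.85% and 11.1% of all tested genes were. None of the 7 was called for a difference between the responses with and without inhibitor (the interaction), where 0.223% of all tested genes were called at 3 h and 0.00436% at 15 min, for each inhibitor. The interactions of GSK591 and MS023 share the libraries without inhibitor.

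HMGCS1 had 26.4 and 22.4 CPM after 7 days of GSK591 alone and 38.8 and 31.3 CPM with Dex for 3 h. For MS023 the levels were 26.5 and 24.8 CPM alone and 39.4 and 38.4 CPM with Dex. In both settings the Dex libraries lay above those without. The rises were 0.52 after GSK591 (SE 0.141, adjusted p = 0.00981) and 0.60 after MS023 (SE 0.130, adjusted p = 0.000773). The first was lost with DESeq2, without GSK591 7 d replicate 2 or without replicate 1 of GSK591 then Dex 3 h, and the second held on leaving out each library. The response minus that without inhibitor was -0.17 for GSK591 (95% interval -0.59 to 0.25) and -0.09 for MS023 (-0.49 to 0.31). Both intervals include 0, and changes of the response of any size within them are compatible with these libraries.

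FASN had 118 and 129 CPM after GSK591 alone, and 151 and 183 CPM with 3 h of Dex. After MS023 it had 99.4 and 107 CPM alone and 125 and 135 CPM with Dex. The libraries with Dex were again the higher ones. FASN rose by 0.43 after GSK591 (SE 0.105, adjusted p = 0.00386) and by 0.33 after MS023 (SE 0.104, adjusted p = 0.0296). The first call was lost without GSK591 7 d replicate 1 or without replicate 2 of GSK591 then Dex 3 h, and the second on leaving out any of its 4 libraries, without the filter on low counts and with DESeq2. Against untreated cells, GSK591 followed by 3 h of Dex gave the largest FASN difference, 0.77 (SE 0.106, adjusted p = 1.27e-07), a call that held on leaving out each library. The interaction was 0.15 (95% interval -0.17 to 0.47) for GSK591 and 0.05 (-0.27 to 0.37) for MS023.

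SREBF1 fell by 0.30 with 3 h of Dex after GSK591 (SE 0.101, adjusted p = 0.0467), from 110 and 109 CPM to 85.5 and 92.3 CPM. After MS023 its difference was -0.23 (SE 0.099, adjusted p = 0.141), from 99.5 and 105 CPM to 81.2 and 93.5 CPM. Neither pair of groups overlapped, but the GSK591 call was lost on leaving out any of its 4 libraries, without the filter on low counts, with DESeq2 and when only the groups compared were fitted. Across all groups, the 10 libraries with 3 h of Dex had a lowest, median and highest SREBF1 level of 73.5, 84.0 and 93.5 CPM, and the 14 without Dex had 86.6, 103 and 110 CPM. These ranges overlap.

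At 15 min, 2 of 7 genes were called after GSK591 (INSIG1 and FASN, both lower) and 2 of 7 after MS023 (FASN lower, HMGCS1 higher), where 2.09% and 2.07% of all tested genes were. INSIG1 had 17.0 and 16.5 CPM after GSK591 alone and 8.06 and 11.4 CPM with 15 min of Dex, a fall of 0.76 (SE 0.169, adjusted p = 0.00562). After MS023 it had 19.5 and 20.0 CPM alone and 15.2 and 15.8 CPM with Dex, a difference of -0.35 (SE 0.143, adjusted p = 0.280). The Dex libraries were the lower ones in both cases, and the GSK591 call was lost without GSK591 7 d replicate 1, without replicate 1 of GSK591 then Dex 15 min or when only the groups compared were fitted. The INSIG1 interactions at 15 min, 0.02 for GSK591 (95% interval -0.48 to 0.52) and 0.43 for MS023 (-0.03 to 0.88), were not called. Nor was that of SCD with GSK591, 0.96 (95% interval 0.17 to 1.74, adjusted p = 0.643).

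FASN at 15 min fell by 0.43 after GSK591 (SE 0.107, adjusted p = 0.0176), from the levels above to 83.7 and 100 CPM. It fell by 0.54 after MS023 (SE 0.106, adjusted p = 0.00099), to 68.4 and 73.4 CPM. Leaving out either GSK591 7 d library or replicate 1 of GSK591 then Dex 15 min ended the first call, as did fitting only the groups compared, and leaving out MS023 7 d replicate 2 or replicate 1 of MS023 then Dex 15 min ended the second. HMGCS1 had 37.2 and 27.8 CPM at 15 min after GSK591 and 33.3 and 40.2 CPM after MS023, above the inhibitor alone in both. It rose by 0.52 after MS023 (SE 0.131, adjusted p = 0.0195), a call lost with DESeq2, without either MS023 7 d library or without replicate 2 of MS023 then Dex 15 min, and its difference after GSK591 was 0.40 (SE 0.143, adjusted p = 0.155).

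**Figure D2:**
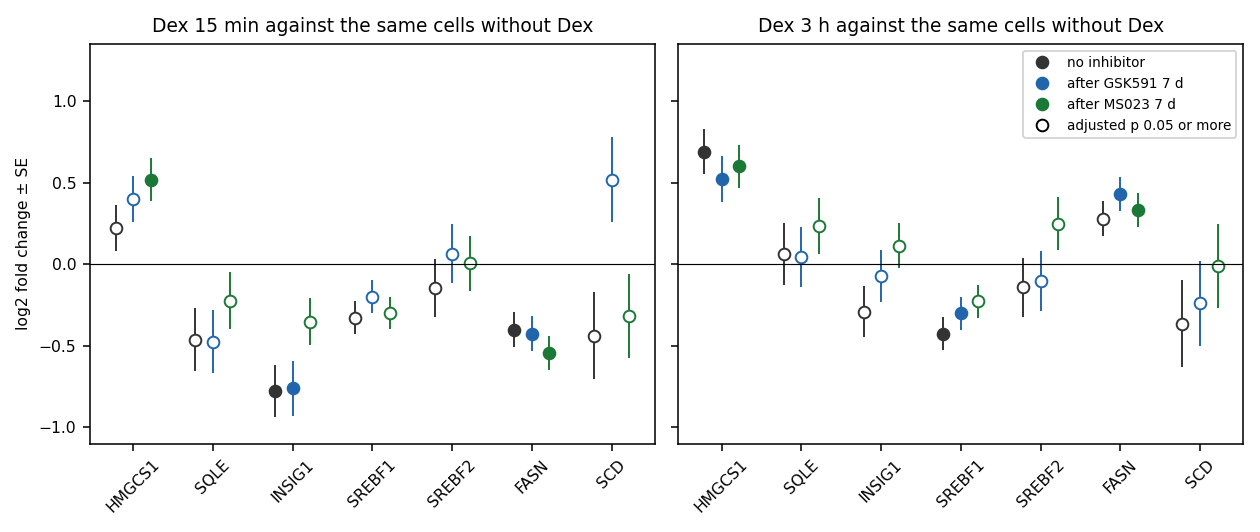
Log2 fold change with its standard error (vertical axis) of each gene (horizontal axis) after 15 min (left) and 3 h (right) of Dex, against untreated cells (grey) or the same inhibitor alone (blue GSK591, green MS023); filled points have an adjusted p under 0.05. FASN is called lower in all 3 settings at 15 min, and HMGCS1 is called higher in all 3 at 3 h, between 0.52 and 0.69.

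HMGCS1 separated libraries by Dex across the design. The 16 libraries with Dex had a lowest, median and highest level of 27.8, 37.0 and 49.4 CPM, and the 14 without had 16.8, 21.2 and 26.5 CPM. These ranges did not overlap with TMM or DESeq2 size factors, but did with total counts as the only scaling. Complete separation with Dex higher was found for 0.266% of all tested genes (61 genes), and for no other of the 7. The libraries of different groups are not replicates of one condition, so the separation is a description.

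An inhibitor given together with Dex for 3 h left no called difference in the 7 genes from Dex alone, for either inhibitor, where 0.0% (GSK591) and 0.196% (MS023) of all tested genes were called. With GSK591 the unadjusted p was under 0.05 for 1306 of the tested genes. HMGCS1 had 34.0 and 34.1 CPM with GSK591 and 36.9 and 49.4 CPM with MS023, against 38.1 and 42.4 CPM with Dex alone. The GSK591 libraries lay below those of Dex alone by 0.24 on the log2 scale (95% interval -0.52 to 0.05), and the MS023 libraries spanned them. SCD differed by 0.48 with MS023 (95% interval -0.08 to 1.04), with libraries of 71.1 and 128 CPM that lie farther apart than the group means. In replicate 2 of that group mitochondrial genes took 61.0% of counts, against 71.2% in replicate 1, and the part of this in the SCD level was not tested.

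The third question was what the inhibitors do without Dex. HMGCS1 fell at 4 days under both inhibitors, FASN rose at 7 days of GSK591, and no other of the 7 genes was called at 2, 4 or 7 days. In this order of days, 0, 1 and 1 of 7 genes were called for GSK591, where 5.64%, 17.2% and 13.2% of all tested genes were. For MS023 the counts were 0, 1 and 0 of 7, where 10.4%, 14.2% and 13.6% were. All 6 comparisons share the same 2 untreated libraries.

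HMGCS1 under MS023 had 18.4 and 19.0 CPM at 2 days, 16.8 CPM in both libraries at 4 days, and 26.5 and 24.8 CPM at 7 days, against 23.8 and 26.0 CPM untreated. The first 2 time points lay below the untreated libraries and the last overlapped them. The difference was -0.41 at 2 days (SE 0.144, adjusted p = 0.0552), a fall of 0.57 at 4 days (SE 0.142, adjusted p = 0.00396) and 0.04 at 7 days (SE 0.138, adjusted p = 0.880). From 4 to 7 days HMGCS1 rose by 0.61 (SE 0.137, adjusted p = 0.00228), the 1 gene of 7 called in that comparison, where 9.04% of all tested genes were. That call held on leaving out each library, while the fall at 4 days was lost without untreated replicate 2 (adjusted p = 0.0757). Scaled by total counts alone, the 4 day difference became 0.18, because that scaling moved the median of all genes by 0.74 on the log2 scale. Relative to that median the value was -0.56.

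Under GSK591, HMGCS1 had 23.8 and 20.0 CPM at 2 days, 19.6 and 17.3 CPM at 4 days, and 26.4 and 22.4 CPM at 7 days. At 2 and at 4 days both libraries lay below both untreated ones, although 1 of the 2 day libraries rounds to the same level as an untreated one. The fall at 4 days was -0.43 (SE 0.145, adjusted p = 0.0315), and it was lost on leaving out any of its 4 libraries and with DESeq2. FASN had 85.8 and 93.2 CPM at 2 days, 90.2 and 103 CPM at 4 days, and 118 and 129 CPM at 7 days. It rose against untreated cells at 7 days by 0.34 (SE 0.106, adjusted p = 0.0261), lost on leaving out any of the 4 libraries and without the filter on low counts, and from 4 to 7 days by 0.36 (SE 0.106, adjusted p = 0.0251), where 8.29% of all tested genes were called. The second call was lost without the filter on low counts, without GSK591 4 d replicate 1 or either 7 day library. Its direction turned, to -0.088, with total counts as the only scaling, where the median of all genes was -0.44.

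SCD was higher than both untreated libraries (98.2 and 86.1 CPM) in all 6 libraries with GSK591 alone, which had 111 and 110 CPM at 2 days, 125 and 148 CPM at 4 days and 136 and 116 CPM at 7 days. Its differences of 0.26, 0.57 and 0.45 had standard errors of 0.260 to 0.262 and adjusted p values of 0.655, 0.158 and 0.306, so none was called. Under MS023 SCD had 116 and 124 CPM at 2 days, 112 and 118 CPM at 4 days and 83.9 and 112 CPM at 7 days. All of these but MS023 7 d replicate 1 also lay above both untreated libraries. For both inhibitors the same 2 untreated libraries were used, and the share of all tested genes with such a pattern was not counted. The differences were 0.38, 0.32 and 0.09, also without a call. INSIG1, SREBF1, SREBF2 and SQLE had differences of at most 0.37 in size in these 6 comparisons. At 7 days none of the 7 genes was called between GSK591 and MS023, where 9.38% of all tested genes were.

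**Figure D3:**
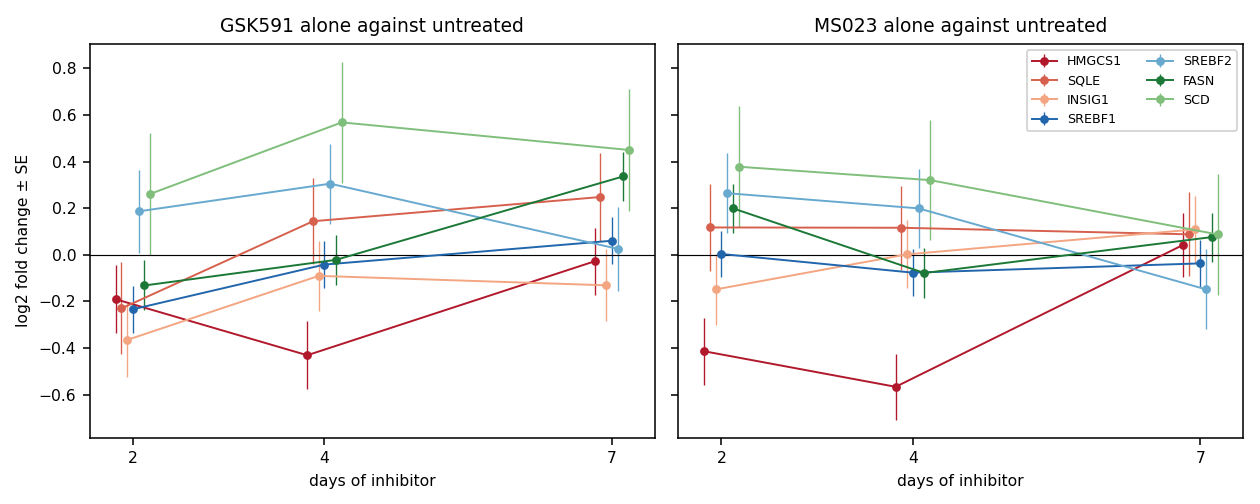
Log2 fold change against untreated cells with its standard error (vertical axis) after 2, 4 and 7 days (horizontal axis, points offset for legibility) of GSK591 (left) and MS023 (right), with 1 line per gene. HMGCS1 is lowest at 4 days, -0.43 with GSK591 and -0.57 with MS023, and near 0 at 7 days.

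Treated groups with both agents were also set against untreated cells, sharing those 2 libraries. Dex with MS023 for 3 h had 4 of 7 genes called, where 12.0% of all tested genes were: HMGCS1 rose by 0.79 (SE 0.136, adjusted p = 2.32e-05) and FASN by 0.43 (SE 0.106, adjusted p = 0.00385), while INSIG1 fell by 0.45 and SREBF1 by 0.32. All 4 calls were lost when only the groups compared were fitted. The falls of INSIG1 and SREBF1 also lost their calls with DESeq2 and without the filter on low counts, that of INSIG1 with DESeq2 size factors in edgeR as well, and both turned to 0.030 and 0.16 with total counts as the only scaling. The INSIG1 call was also lost on leaving out any of its 4 libraries, that of SREBF1 without either untreated library or Dex with MS023 replicate 2, and that of FASN without untreated replicate 1. Dex with GSK591 for 3 h had 2 of 7 called, where 11.9% were: HMGCS1 rose by 0.45 (SE 0.138, adjusted p = 0.0232), lost on leaving out any of the 4 libraries and with DESeq2, and SREBF1 fell by 0.35 (SE 0.101, adjusted p = 0.0152), lost without either untreated library or without Dex with GSK591 replicate 1.

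After 7 days of GSK591 and 15 min of Dex, 2 of 7 genes were called against untreated cells, where 15.5% of all tested genes were. INSIG1 fell by 0.89 (SE 0.164, adjusted p = 6.5e-05), and this call held on leaving out each library and under each other setting. SCD had 136 and 223 CPM there, the highest level of any group, and rose by 0.97 (SE 0.261, adjusted p = 0.0184). Its libraries lie far apart, and without replicate 2 the difference was 0.56 and not called. The call was also lost without either untreated library and without the filter on low counts. Mitochondrial genes took 78.2% of counts in replicate 1 and 69.8% in replicate 2, and the part of this in the SCD level was not tested.

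After 7 days of MS023, 15 min of Dex gave 3 of 7 called against untreated cells, where 17.2% were: HMGCS1 rose by 0.56 and FASN and SREBF1 fell by 0.47 and 0.34. With 3 h of Dex, 3 of 7 were called, where 21.9% were: HMGCS1 rose by 0.64, FASN rose by 0.40 and SREBF1 fell by 0.27. With total counts as the only scaling, the FASN fall at 15 min became 0.41 and the SREBF1 falls became 0.54 and 0.74. There the median of all genes was 0.87 at 15 min and 1.00 at 3 h. Both SREBF1 calls were lost without either untreated library or without replicate 1 of the treated group, and that at 3 h also with DESeq2, with its size factors in edgeR, without the filter on low counts and when only the groups compared were fitted. HMGCS1 at 15 min lost its call without untreated replicate 1 or replicate 2 of the treated group, and FASN at 3 h without replicate 2 of the treated group. GSK591 followed by 3 h of Dex had 2 of 7 called, FASN as given above and HMGCS1, which rose by 0.49 (SE 0.139, adjusted p = 0.00569), where 26.8% were. The HMGCS1 call was lost without untreated replicate 1 or replicate 1 of the treated group. The GSK591 and MS023 series were also set against each other with Dex present. At 15 min 3 of 7 genes were called, where 15.6% of all tested genes were: INSIG1 was lower after GSK591, and FASN and SCD were higher. At 3 h 1 of 7, FASN, was called and higher after GSK591, where 11.1% were, a call lost when only the groups compared were fitted. Both FASN differences turned negative with total counts as the only scaling, to -0.44 and -0.48. There the median of all genes was -0.88 and -0.85. With total counts as the only scaling, 13 of the 41 calls described for the 7 genes remained in the same direction: 8 of HMGCS1, 3 of FASN and 2 of INSIG1. Over all 34 comparisons, which share libraries, FASN was called in 14, HMGCS1 in 13, INSIG1 and SREBF1 in 6 each and SCD in 2, and SQLE and SREBF2 in 0.

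The neighbouring genes of the pathway were read from lists chosen by role. Of the 19 other genes of mevalonate and cholesterol synthesis, 3 rose and 0 fell after 3 h of Dex, with a median log2 fold change of 0.17 over the 19 beside -0.01 over all tested genes, of which 6.11% were called higher. MVD, which makes isopentenyl diphosphate, rose from 17.1 ± 2.47 to 25.8 ± 0.923 CPM (SD, n = 2), or by 0.59 (SE 0.135, adjusted p = 0.00163). IDI1, the isomerase of the next step, rose from 36.9 ± 5.12 to 52.5 ± 5.14 CPM (SD, n = 2), or by 0.51 (SE 0.125, adjusted p = 0.00351). LSS, which closes the sterol ring, rose from 12.2 ± 0.940 to 18.0 ± 0.247 CPM (SD, n = 2), or by 0.56 (SE 0.151, adjusted p = 0.00967). The MVD call was lost without untreated replicate 1, the IDI1 call without untreated replicate 2 or Dex 3 h replicate 2, and the LSS call with DESeq2, without untreated replicate 1 or either Dex library. At 15 min 0 of the 19 were called by edgeR, where 1.26% of all tested genes were called and 1749 had an unadjusted p under 0.05.

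After GSK591, 3 h of Dex raised 3 and lowered 0 of the same 19 genes, where 9.85% of all tested genes were called. MSMO1 rose by 0.93, EBP by 0.74 and LSS by 0.48, and the median over the 19 was 0.32. After MS023, 3 h of Dex raised 1 and lowered 0, where 11.1% of all tested genes were called. LSS rose by 0.44, and the median was 0.10. These genes were named because the counts are small, after their values were seen. LSS was called in all 3 settings, but its calls after the inhibitors were lost on leaving out any library, without the filter on low counts and with DESeq2. The MSMO1 call was lost without GSK591 7 d replicate 1, as was the EBP call, which was also lost with DESeq2 and without replicate 2 of GSK591 then Dex 3 h.

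**Figure D4:**
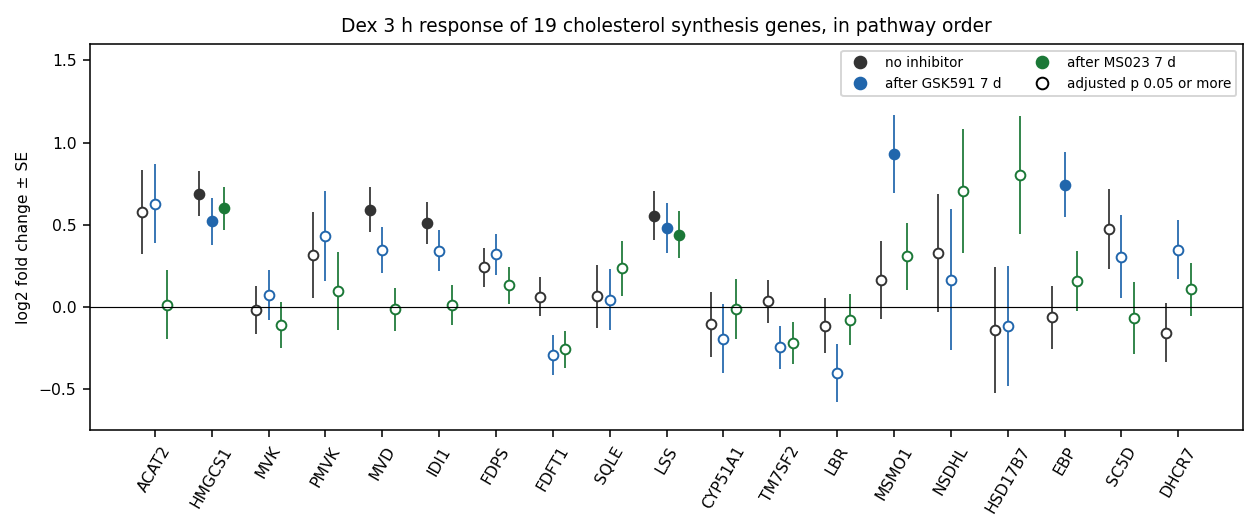
Log2 fold change with its standard error (vertical axis) of 19 of the 21 cholesterol synthesis genes, HMGCS1 and SQLE included, in pathway order (horizontal axis), after 3 h of Dex without inhibitor (grey), after GSK591 (blue) and after MS023 (green); filled points have an adjusted p under 0.05. HMGCS1 and LSS are filled in all 3.

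Among the 14 other genes of fatty acid synthesis and desaturation, 1 rose and 0 fell after 3 h of Dex, where 10.5% of all tested genes were called. ACACB, the acetyl-CoA carboxylase of the mitochondrial surface, rose from 22.9 ± 2.44 to 49.7 ± 0.525 CPM (SD, n = 2), or by 1.12 (SE 0.127, adjusted p = 2.47e-09), and held on leaving out each library. ACACA, the cytosolic carboxylase that feeds FASN, differed by -0.35 (adjusted p = 0.0879) and ACLY by 0.25 (adjusted p = 0.432). SCAP, the SREBP escort, fell by 0.47 (adjusted p = 0.0244), 1 of the 7 other genes of SREBP processing and the only one called. NPC1, which exports lysosomal cholesterol, fell by 0.42 (adjusted p = 0.0234), 1 of 7 genes of uptake and transport. Both counts stand beside the same 10.5% of all tested genes. The SCAP and NPC1 calls were not made with DESeq2, without the filter on low counts or with total counts as the only scaling, and each was lost on leaving out any of 3 of the 4 libraries, SCAP's without either untreated library or Dex 3 h replicate 2, and NPC1's without untreated replicate 2 or either Dex library. After GSK591, 3 h of Dex raised 2 of the 14 fatty acid genes (ACACB by 0.92, FADS1 by 0.51) and lowered 2 (ACACA by 0.50, LPIN1 by 0.86). After MS023 it raised 2 (ACACB by 0.61, SLC25A1 by 0.33) and lowered 1 (LPIN1 by 0.90). Of all tested genes, 9.85% were called with 3 h of Dex after GSK591 and 11.1% after MS023. The ACACB calls held on leaving out each library in all 3 settings, while the ACACA call was lost without GSK591 7 d replicate 1 or replicate 1 of GSK591 then Dex 3 h, the LPIN1 call after GSK591 without the latter, and the SLC25A1 call on leaving out any of its 4 libraries, without the filter on low counts and with DESeq2. Of the 6 genes of LXR and cholesterol efflux, 0 were called by edgeR at 3 h of Dex. Of all tested genes, 10.5% were called there and 5205 had an unadjusted p under 0.05.

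Under the inhibitors alone, some genes of efflux rose. At 4 and 7 days of GSK591, 4 and 3 of the 6 genes rose and 0 fell, where 8.91% and 6.68% of all tested genes were called higher. The medians over the 6 genes were 0.61 and 0.41, beside -0.0016 and -0.0049 over all tested genes. ABCA1, the cholesterol exporter, rose from 4.58 ± 0.918 CPM to 10.3 ± 0.80 CPM at 4 days and 19.6 ± 2.84 CPM at 7 days (SD, n = 2), or by 1.17 and 2.10 (adjusted p = 0.00131 and 1.12e-07), and both calls held on leaving out each library. NR1H3, the LXRα gene, rose by 0.71 at both times, and NR1H2, the LXRβ gene, by 0.52 at 4 days. The remaining gene called was ABCG1, another exporter, which rose by 1.76 and 2.30 from a level of 1.01 CPM and falls under the 5 CPM set for naming, so it was named after its values were seen. At 4 and 7 days of MS023, 3 and 2 of the 6 rose and 0 fell, where 7.8% and 7.13% of all tested genes were called higher, and the medians were 0.47 and 0.06, beside -0.0011 and 0.0061 over all tested genes. The genes called were ABCG1 at both times, by 1.40 and 2.07, MYLIP and NR1H2 at 4 days by 0.51 and 0.50, and NR1H3 at 7 days by 0.64. Leaving out untreated replicate 1 ended the NR1H2 calls under both inhibitors, the MYLIP call and the NR1H3 call under MS023, and leaving out untreated replicate 2 ended all 3 NR1H3 calls and the 4 day ABCG1 call under MS023. The same calls were also lost without replicate 1 of the treated group (NR1H2 under GSK591, NR1H3) or without replicate 2 (NR1H2, MYLIP and ABCG1 under MS023).

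In cholesterol synthesis, 0 of the 19 other genes were called at 4 or 7 days of GSK591, where 17.2% and 13.2% of all tested genes were. Unadjusted p was under 0.05 for 6741 and 5967 of all tested genes. With MS023, 2 rose at 4 days and 3 at 7 days, and 0 fell, where 7.8% and 7.13% of all tested genes were called higher. FDFT1, the squalene synthase, rose by 0.41 and 0.40, and ACAT2 by 0.79 and 0.71. Leaving out untreated replicate 2 ended both ACAT2 calls, untreated replicate 1 both FDFT1 calls, and replicate 2 of the treated group the calls of both genes; the ACAT2 calls were lost without either treated library and with DESeq2, and the FDFT1 call at 7 days without either untreated library. At 2 days of MS023, 1 rose and 2 fell, TM7SF2 by 0.52, CYP51A1 by 1.16 and IDI1 by 0.45, named after their values were seen. Of all tested genes, 10.4% were called at 2 days of MS023. In uptake, NPC1 fell by 0.57 at 4 days of GSK591 and by 0.47 and 0.52 at 4 and 7 days of MS023. It was not the only uptake gene called at 4 days of either inhibitor, and those not reported here included a rise. Of all tested genes, 17.2% were called at 4 days of GSK591, and 14.2% and 13.6% at 4 and 7 days of MS023. SCAP fell by 0.60 and 0.49 at 4 and 7 days of MS023. With total counts as the only scaling the MS023 values became 0.27 and 0.49 for NPC1 and 0.15 and 0.53 for SCAP. The median of all genes was then 0.74 at 4 days and 1.02 at 7 days. Of the fatty acid genes, ELOVL1 and FADS1 fell under GSK591, by 0.59 and 0.40 at 4 days and 0.50 and 0.30 at 7 days. Under MS023, LPIN1 fell by 0.50 at 4 days and ACACB by 0.86 at 7 days, and both turned positive with total counts, to 0.24 and 0.15. FADS1 at 4 days of GSK591 turned to 0.01, where the median of all genes was 0.42. RNF145, a ubiquitin ligase of the sterol-sensing system, rose by 0.63 at 4 days of GSK591. FADS1 at 7 days of GSK591 and LPIN1 at 4 days of MS023 were no longer called on leaving out any of their libraries, without the filter on low counts, with DESeq2 or with its size factors in edgeR, nor was FADS1 when only the groups compared were fitted. ELOVL1 lost its calls without untreated replicate 1 at both times, without GSK591 4 d replicate 2, without either 7 day library and, at 7 days, with DESeq2, and FADS1 at 4 days without GSK591 4 d replicate 1. NPC1 under MS023 lost its calls without untreated replicate 2, MS023 4 d replicate 1 or MS023 7 d replicate 2, and SCAP at 7 days with DESeq2, without untreated replicate 1 or MS023 7 d replicate 1.

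The authors' deposited tables give their own fold changes for 14 comparisons against untreated cells. They rest on the same libraries, so they are no independent evidence. Of the 98 values for the 7 genes, the authors' deposited tables called 44 at an adjusted p under 0.05 and the fit of the gene counts 23, with 21 called in both, all in the same direction. The authors' deposited tables called SREBF2 in 0 of 14 comparisons, SQLE in 3, INSIG1 in 4, SCD in 7, SREBF1 in 8, FASN in 10 and HMGCS1 in 12. For HMGCS1 at 15 min of Dex, the authors' deposited table gives 0.64 (adjusted p = 3.6e-09) where the fit of the counts gave 0.22. SREBF1 was called in the authors' deposited tables at 15 min of Dex (-0.63) and not at 3 h (-0.20). In the fit it was called at 3 h (-0.43) and not at 15 min (-0.33). For INSIG1 after MS023 then Dex 15 min, the authors' deposited table gives -1.13 and the fit -0.24, and after GSK591 then Dex 15 min the values are -1.89 and -0.89. For SCD in that group the authors' deposited table gives the smaller value, 0.38 against 0.97, and for SCD at 4 and 7 days of GSK591 it calls rises of 0.75 and 0.53.

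The mean normalised count in the authors' deposited tables also differs from the mean of the deposited counts by gene. For SREBF2 the values are 686 in the authors' deposited table and 132 in the count table, a ratio of 5.20, and the gene is 9.82 times as long as its exons. For HMGCS1 the ratio was 2.36 and for FASN, SCD, INSIG1, SREBF1 and SQLE it was 1.49, 1.72, 1.19, 1.12 and 1.05. The 2 sources therefore do not hold the same count per gene, and which bases each one counts is not given in the sources used here.

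**Figure D5:**
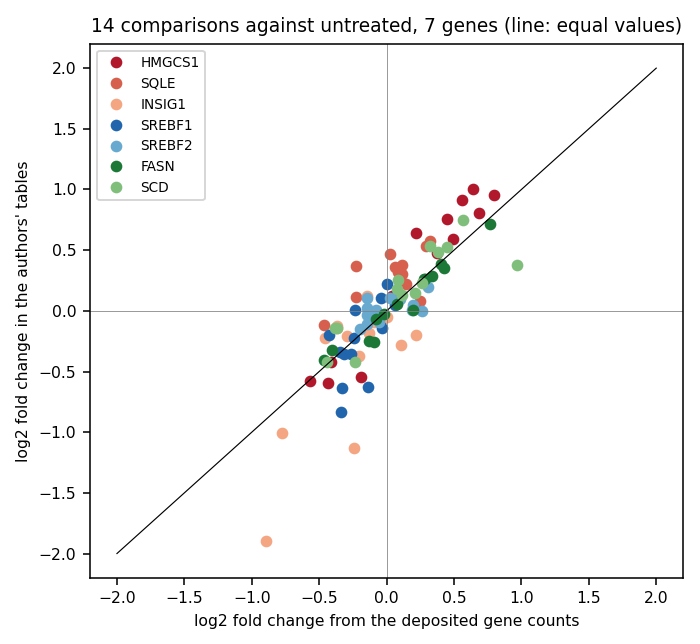
Log2 fold change in the authors' deposited tables (vertical axis) against that from the deposited gene counts (horizontal axis), 1 point for each of 7 genes in each of 14 comparisons with untreated cells; the line marks equal values. INSIG1 after GSK591 then Dex 15 min, at -0.89 and -1.89, lies farthest below the line, and SCD in the same group, at 0.97 and 0.38, lies to its right.

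Over the 15 group means, the genes whose log2 levels were most like those of HMGCS1 among 6752 candidates were DNM2, TIPARP and AKAP13, with Pearson r of 0.960, 0.953 and 0.938. For FASN the nearest was PDGFA (0.912), for SREBF1 LOC613038 (0.892), for SCD PAPPA (0.885), for SREBF2 GLCCI1 (0.864), for INSIG1 HDDC3 (0.843) and for SQLE SERPINH1 (0.835). Among the 7 themselves, SQLE and INSIG1 were most alike (r = 0.776), followed by SREBF2 and SCD (0.732), while HMGCS1 ran opposite to SREBF1 (-0.752) and SREBF2 (-0.724). HMGCS1 and FASN, the genes called most often, had an r of 0.306. These correlations describe 15 points that share scaling, and no test was made of them.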

How the data were processed

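The deposited gene counts cover 30 PRO-seq libraries of A549 cells in 15 groups of 2. The authors' count table was made with featureCounts 2.0.1 of Subread on hg38, per the submitters' processing notes. The aligner, the feature type counted and the use of strand are not given in the sources used here. The authors' deposited comparison tables hold a mean normalised count (a signal), a log2 fold change with its log2 standard error, and p-values raw and adjusted, for 14 treated groups against untreated cells.

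Counts were tested with edgeR 4.0.16 (R 4.3.3) by the quasi-likelihood test: TMM scaling, the filterByExpr filter (minimum count 10, minimum total 15), 1 mean per group over all 30 libraries, which left 15 residual degrees of freedom, and Benjamini-Hochberg adjustment over the 22919 genes tested. A call is an adjusted p under 0.05. Levels are TMM-scaled CPM, and per kilobase of merged GENCODE 29 exons where genes are compared. Intervals are 95% t intervals, made from each estimate and its SE on the 15 residual degrees of freedom alone. The test adds degrees of freedom shared over genes (median 34.1), so these intervals are wider than the test would give. Total counts of 8441211 to 13069598 per library and 59 or more counts for each of the 7 genes set the counting error. The steps were tested on simulated data.

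The 7 genes, the pathway lists and the cell type markers were chosen with earlier results of these data known. Some list genes are counted but not reported here. List genes are named where called with a mean of 5 CPM or more, with ACLY and ACACA named throughout, and genes of like pattern are the nearest by Pearson r over 15 group means among genes of 10 CPM or more. Alternatives were DESeq2 size factors, scaling by total counts alone, omission of the filter, a replicate block, the compared groups alone, removal of mitochondrial and ribosomal RNA genes, DESeq2 1.42.0, and each library left out.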

Additional observations from a re-analysis of the deposited data

Results flagged for a closer look

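With Dex present, the GSK591 and MS023 series differed in 4 results by a test of the difference itself (edgeR quasi-likelihood test, 2 libraries a group). After 7 days of inhibitor and 15 min of Dex, INSIG1 was lower with GSK591 (8.06 and 11.4 CPM) than with MS023 (15.2 and 15.8 CPM), by -0.65 on the log2 scale (SE 0.163, adjusted p = 0.00389). SCD was higher with GSK591 (136 and 223 CPM) than with MS023 (74.9 and 82.2 CPM), by 1.20 (SE 0.261, adjusted p = 0.00521). FASN was higher with GSK591 by 0.38 at 15 min (83.7 and 100 against 68.4 and 73.4 CPM, SE 0.107, adjusted p = 0.0111) and by 0.36 at 3 h (151 and 183 against 125 and 135 CPM, SE 0.104, adjusted p = 0.0160). In none of the 4 did the libraries overlap. These 4 were picked for being called in the same libraries, so this is a description and adds no support.

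Each call rested on single libraries. INSIG1 lost it without replicate 1 of GSK591 then Dex 15 min or replicate 2 of MS023 then Dex 15 min, with estimates from -0.94 to -0.45. SCD and FASN at 15 min lost it without replicate 2 of GSK591 then Dex 15 min or replicate 1 of MS023 then Dex 15 min, with estimates down to 0.80 for SCD and from 0.24 to 0.49 for FASN. FASN at 3 h lost it without replicate 2 of GSK591 then Dex 3 h or either MS023 library (0.21 to 0.49). Mitochondrial genes took 69.8% to 78.2% of counts in the GSK591 libraries at 15 min and 60.4% to 64.2% in the MS023 libraries, and 71.1% and 76.0% against 58.7% and 59.8% at 3 h. The part of this in these differences was not tested.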

How the results depend on the processing

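The number of the 7 genes called changed as follows. With DESeq2 it was 1 instead of 2 for Dex 15 min, 1 instead of 3 and 1 instead of 2 for Dex 3 h after GSK591 and after MS023, and 0 instead of 1 for GSK591 4 days. Without the filter on low counts it was 1 for Dex 15 min, 2 for Dex 3 h after GSK591, 1 for Dex 3 h after MS023 and 0 for GSK591 7 days. Fitting only the groups compared gave 3 for Dex 3 h, 2 for Dex 3 h after GSK591 and 2 for each of GSK591 4 days, GSK591 7 days, MS023 2 days, MS023 4 days and GSK591 against MS023 at 7 days. Total counts as the only scaling gave 0 for Dex 15 min, 1 for Dex 3 h, 1 and 0 for Dex 3 h after GSK591 and after MS023, 0 for GSK591 7 days, 5, 6 and 7 for MS023 at 2, 4 and 7 days, and 6 for GSK591 against MS023. That scaling moved the median of all genes by 0.31 at Dex 15 min, 0.15 at Dex 3 h and 0.68, 0.74 and 1.02 under MS023. For the other changes the cause was not tested.

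All 9 reversals among the 41 single-gene results came with total counts: HMGCS1 at MS023 4 days 0.18, FASN from 4 to 7 days of GSK591 -0.088, INSIG1 and SREBF1 for Dex with MS023 0.030 and 0.16, SREBF1 and FASN for MS023 then Dex 15 min 0.54 and 0.41, SREBF1 for MS023 then Dex 3 h 0.74, and FASN between the inhibitors with Dex -0.44 at 15 min and -0.48 at 3 h. Total counts also moved the median of all genes, to 0.74 at MS023 4 days and -0.44 from 4 to 7 days of GSK591. The median was 0.51 for Dex with MS023, and 0.87 and 1.00 for MS023 then Dex 15 min and 3 h. Between the inhibitors with Dex it was -0.88 at 15 min and -0.85 at 3 h. That scaling left 13 of the 41 called in the same direction. DESeq2 left 29, omission of the filter 31 and the compared groups alone 31. DESeq2 size factors in edgeR left 39, and removal of mitochondrial and ribosomal RNA genes 41.

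Leaving out 1 library at a time, with the lone library assumed to vary like the other groups, gave 0 to 1 genes called for Dex 15 min, 1 to 2 for Dex 3 h, 1 in every fit for Dex 3 h after GSK591 and after MS023, 0 for GSK591 4 and 7 days and 0 to 1 for MS023 4 days. It gave 0 in the comparisons with no call.

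The replicate number shared across groups was tested as a block. Deviations of same-numbered libraries correlated at -0.451 to 0.487 over 105 pairs of groups (median 0.0214), with r above 0.1 in 22 pairs. Whether same-numbered libraries of some groups share a batch was not tested. The replicate block gave 3 genes called instead of 2 for Dex 3 h, 2 for Dex 15 min, and 41 of the 41 single-gene calls in the same direction.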
